A study of Mus musculus with 6 samples.

Results

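The genes described here are 10 immediate-early genes outside the AP-1 family, chosen by symbol from the 22032 genes of the count table: Egr1, Egr2 and Egr3, Nr4a1, Nr4a2 and Nr4a3, and Ier2, Dusp1, Btg2 and Zfp36. All 10 passed the filter on low counts and were tested among 14632 genes. They were measured by sequencing of poly(A) RNA from the temporomandibular joint, the jaw joint, of mice aged 10 weeks that were either Igf2bp2 knockout (KO) or wild-type (WT) littermates. IGF2BP2 binds m6A-modified mRNA, and the series title places it upstream of a FOS, PPARγ and NFATC1 network in bone loss beneath the joint cartilage. Each group had 3 libraries. The sources used here do not give how the knockout was made or whether each library came from 1 animal.

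Immediate-early genes are transcribed within minutes of a stimulus without new protein synthesis, mainly through serum response factor (SRF) and CREB already bound at their promoters. EGR proteins are zinc finger transcription factors that bind GC-rich sites, and NR4A proteins are nuclear receptors that act without a known hormone. The other members damp the response: DUSP1 dephosphorylates MAP kinases, BTG2 recruits the deadenylase complex to mRNA, and ZFP36 (tristetraprolin) destabilises AU-rich transcripts. IER2 is a small nuclear protein of the same response.

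The upstream sequences of 6 members are shown because these genes belong to 1 induced class and include lower (Egr2, Nr4a1, Nr4a2), higher (Btg2) and uncalled (Nr4a3, Dusp1) members. They are RefSeq promoter windows on build GRCm38.p6, which is not the build of the count table, and 7 of the 10 members matched that table (not Egr1, Egr3 and Ier2). Each runs 5′ to 3′ and ends at the base before the start, or earlier where an exon of the same gene begins in the GENCODE annotation of that build. Capitals mark the CRE half-site TGACG on either strand and the CArG box, the site of SRF.
Egr2, chr10:67537619-67537868, plus strand: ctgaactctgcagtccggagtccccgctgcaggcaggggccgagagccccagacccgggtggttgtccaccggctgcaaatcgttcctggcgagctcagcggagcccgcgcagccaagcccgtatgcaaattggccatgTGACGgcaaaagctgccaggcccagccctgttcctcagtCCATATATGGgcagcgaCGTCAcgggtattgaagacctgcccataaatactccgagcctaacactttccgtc
Nr4a1, chr15:101266596-101266845, plus strand: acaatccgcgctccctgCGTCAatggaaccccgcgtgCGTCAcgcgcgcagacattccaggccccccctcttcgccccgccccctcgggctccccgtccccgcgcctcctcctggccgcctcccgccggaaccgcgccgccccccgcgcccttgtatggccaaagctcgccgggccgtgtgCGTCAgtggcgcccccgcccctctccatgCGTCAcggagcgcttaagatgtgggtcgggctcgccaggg
Nr4a2, chr2:57124004-57124253, minus strand: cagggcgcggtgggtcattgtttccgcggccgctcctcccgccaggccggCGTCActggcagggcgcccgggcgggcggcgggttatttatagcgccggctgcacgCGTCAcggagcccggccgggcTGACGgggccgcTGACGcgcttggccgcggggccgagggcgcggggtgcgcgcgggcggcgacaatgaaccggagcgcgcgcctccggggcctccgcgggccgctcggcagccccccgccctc
Nr4a3, chr4:48045055-48045152, plus strand: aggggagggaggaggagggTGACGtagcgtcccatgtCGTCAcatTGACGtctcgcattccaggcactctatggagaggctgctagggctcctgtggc
Dusp1, chr17:26508520-26508722, minus strand: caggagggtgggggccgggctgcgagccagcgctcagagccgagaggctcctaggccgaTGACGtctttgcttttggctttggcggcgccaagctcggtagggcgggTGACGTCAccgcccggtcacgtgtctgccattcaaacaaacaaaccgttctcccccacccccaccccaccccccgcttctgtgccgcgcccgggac
Btg2, chr1:134079156-134079405, minus strand: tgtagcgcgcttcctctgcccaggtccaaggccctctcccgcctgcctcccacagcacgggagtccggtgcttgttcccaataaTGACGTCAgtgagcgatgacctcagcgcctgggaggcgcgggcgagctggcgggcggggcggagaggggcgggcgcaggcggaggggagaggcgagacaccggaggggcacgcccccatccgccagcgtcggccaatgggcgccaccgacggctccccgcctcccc
The half-site was found 4 times in the window of 250 bases of Nr4a1, 4 times in that of Nr4a2 and 4 times in that of Nr4a3, whose printed stretch holds 3 of them. Dusp1 had 3 matches and Btg2 had 2, and in each of these genes 2 of the matches overlap as the full palindrome TGACGTCA. The Egr2 window is 1 of 5 in the table and was chosen after the search because it held both motifs, with 2 half-sites and 1 CArG box. Zfp36 had a CArG box and no half-site, and its window is not printed because it lies within annotated exons. Of 32817 windows of this length in the table, 17.7% held at least 1 half-site, 0.689% at least 3 and 0.137% at least 4, while 1.55% held the palindrome and 1.47% a CArG box. A match describes letters and is not evidence of binding.

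Total counts were 28551236 to 35094127 per library, of which 85.3% to 90.8% were mitochondrial, leaving 4604575 to 4899680 nuclear counts in KO and 2625472 to 3205190 in WT. In the median gene, the distance between KO 1 and KO 3 was within what sampling of read pairs gives, and so was that between WT 2 and WT 3 (variance 0.941 and 0.964 times that of counting, against 1.31 to 1.63 times for other pairs of a group). Each close pair was summed and counted as 1 sample, so n = 2 samples per group. Since no label ties libraries to separate animals, the p-values reflect the spread of these samples alone, which may be technical. Counts of Igf2bp2 itself were 13, 14 and 10 in the KO libraries and 38, 20 and 24 in the WT libraries, and it was lower by edgeR (log2 fold change -1.80, SE 0.39, false discovery rate, FDR, 0.00589). The joint markers Prg4 and Bglap, of synovial lining and bone, were at 11.3 and 14.6 CPM in WT, whereas the cartilage markers Col2a1 and Acan were at 1.47 and 0.927 CPM. Prg4 and Bglap were both higher in KO at FDR 0.05. Of 10 fibroblast and synovial markers 3 were lower and 3 higher, and of 10 bone markers 2 were lower and 2 higher. Over all tested genes, 8.48% were lower and 9.15% higher. Markers of fast muscle summed to 4960 CPM or more in every library, so these are mixed tissues in which fewer cells of a type and less RNA per cell cannot be told apart.

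Of the 6 EGR and NR4A genes 4 were lower in KO, and of the 4 other members 1 was higher. Egr1 was lowest relative to WT, at 2.81 ± 0.309 CPM in KO against 10.6 ± 0.743 in WT (mean ± SD, n = 2 samples), and Nr4a2, Nr4a1 and Egr2 followed. Btg2 was higher at 13.2 ± 0.0716 CPM against 9.27 ± 0.241. CPM here is the count relative to library size, scaled by factors from the trimmed mean of M-values (TMM). By edgeR's quasi-likelihood test at FDR 0.05, 8.48% of all tested genes were lower in KO, 9.15% were higher and 17.6% were either. In 7 of the 10 members the values of KO and WT libraries were fully apart, as they were in 38.4% of all tested genes. The median log2 fold change, KO minus WT, was -0.65 over the 10 members and -0.01 over all tested genes.

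**Figure D1:**
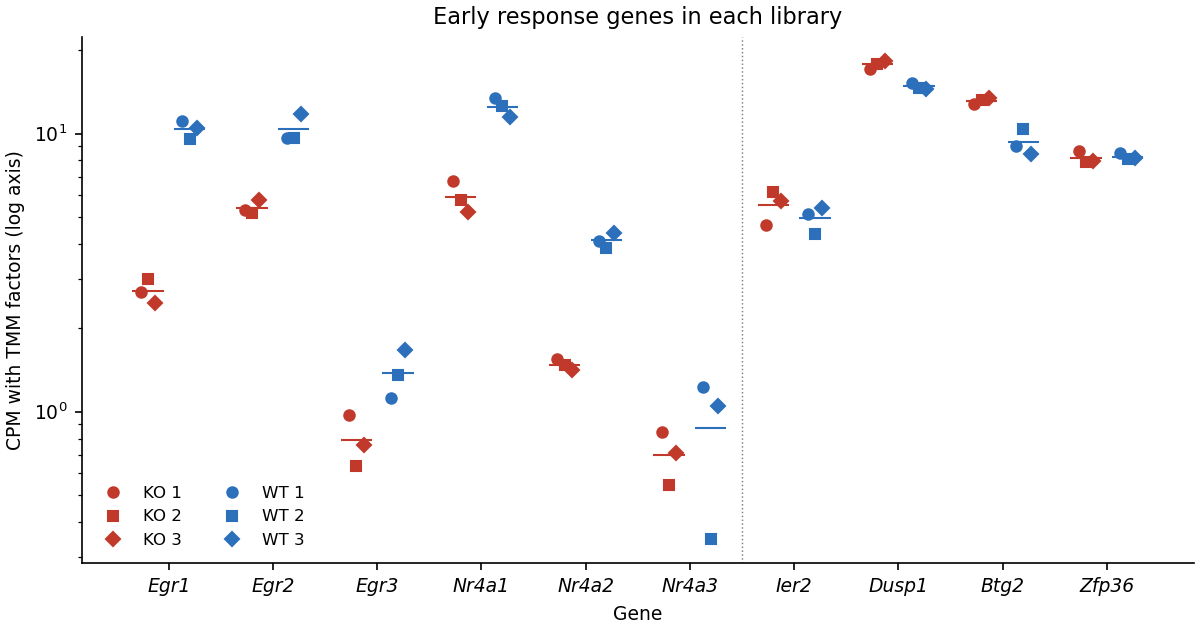
CPM of the 10 genes in each library on a log axis, with KO in red, WT in blue, symbols for the replicate number and a line at the mean of the 3 libraries. The KO and WT points of Egr1, Egr2, Nr4a1 and Nr4a2 lie well apart, with all KO points lower, while those of Ier2 and Zfp36 overlap.

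Egr1, the EGR family member most widely induced by growth factors and mechanical load, had 2.70, 3.01 and 2.45 CPM in KO 1 to 3 and 11.1, 9.60 and 10.5 CPM in WT 1 to 3. Every KO library was thus far below every WT library, and this also held for the raw counts, at 105, 127 and 97 in KO and 326, 220 and 269 in WT, although KO libraries had more nuclear counts. The log2 fold change was -1.93 (SE 0.15, 95% interval -2.25 to -1.61, edgeR FDR 1.47e-06). It was between -2.03 and -1.85 when each library was left out. Among genes called lower in KO, 117 had a more negative change.

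Egr2, best known for driving the myelination programme of Schwann cells, had 5.29, 5.17 and 5.76 CPM in KO 1 to 3 and 9.67, 9.64 and 11.8 CPM in WT 1 to 3, without overlap. The log2 fold change was -0.93 (SE 0.13, edgeR FDR 0.000263). Egr3, an early gene needed for muscle spindles, was scarce, with 0.976, 0.640 and 0.759 CPM in KO and 1.12, 1.35 and 1.67 CPM in WT. The libraries of the groups did not overlap, but Egr3 did not pass, with a difference of -0.80 (95% interval -1.47 to -0.14, FDR 0.0951). Egr3 rested on 95 counts over KO and 107 over WT, and it passed when the 6 libraries were taken as separate samples (FDR 0.0425), a fit in which 12.4% of genes were lower.

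Schwann cell markers were lower in the same libraries. All 10 tested markers of that list were lower in KO, Egr2 among them, against 8.48% of all tested genes. The other 9 markers summed to 484 to 499.9 CPM in KO and 1420 to 1460 CPM in WT. Per 1000 counts of those 9 genes, Egr2 had 10.6, 10.7 and 11.7 counts in KO and 6.62, 6.73 and 8.29 in WT, so relative to them it was higher in each KO library. Egr1 had 5.40, 6.22 and 4.96 counts per 1000 in KO and 7.60, 6.70 and 7.36 in WT, a smaller gap than in CPM. The part of Schwann cell RNA in the levels of either gene was not tested.

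The NAB proteins bind EGR factors and repress their activity, and Nab2 is itself an EGR target. Nab2 had 3.68, 3.51 and 3.11 CPM in KO 1 to 3 and 6.84, 7.11 and 5.94 CPM in WT 1 to 3. It was lower in every KO library (log2 fold change -0.95, SE 0.15, edgeR FDR 0.000571), but did not pass with library totals unscaled by TMM (-0.40, FDR 0.0566). Nab1 was also lower (-0.47, FDR 0.0133) but did not pass with library totals (0.08, FDR 0.664) or by DESeq2's Wald test (FDR 0.0787). Without KO 2, which leaves 1 KO sample, the Nab1 change was -0.44 and the call was lost. With these 2 genes, 4 of the 5 tested EGR and NAB genes were lower, Egr1 and Egr2 among them, and none was higher. Over all tested genes, 8.48% were lower and 9.15% higher. The median log2 fold change of the 5 genes was -0.93.

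Nr4a1 (Nur77), a nuclear receptor induced in muscle, macrophages and many other cells, had 6.73, 5.76 and 5.23 CPM in KO 1 to 3 and 13.5, 12.5 and 11.5 CPM in WT 1 to 3. The log2 fold change was -1.11 (SE 0.13, edgeR FDR 3.91e-05), with no overlap between groups. Nr4a2 (Nurr1), needed for midbrain dopamine neurons and also induced in inflamed synovium, had 1.54, 1.47 and 1.42 CPM in KO and 4.12, 3.88 and 4.39 CPM in WT. It was lower by a wider margin, at -1.49 (SE 0.19, FDR 8.79e-05). Per 100 Nr4a1 counts there were 22.9, 25.5 and 27.1 Nr4a2 counts in KO and 30.6, 31.0 and 38.2 in WT, so the ratio of the pair was also lower in each KO library.

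Nr4a3 (NOR1), the third receptor of the family, was the scarcest member. Its counts were 33, 23 and 28 in the KO libraries and 36, 8 and 27 in the WT libraries, the lowest in WT 2. Its levels of 0.848, 0.545 and 0.708 CPM in KO and 1.23, 0.349 and 1.05 CPM in WT overlapped. The difference of -0.49 (95% interval -1.29 to 0.32, edgeR FDR 0.423) includes changes as large as that of Nr4a1 and was between -0.76 and -0.08 when each library was left out. Whether Nr4a3 followed the rest of its family was thus not detectable at this depth.

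The 4 members that damp or accompany the response were level or higher in KO. Btg2 had 12.7, 13.2 and 13.4 CPM in KO 1 to 3 and 9.06, 10.4 and 8.47 CPM in WT 1 to 3, without overlap. Its log2 fold change was 0.51 (SE 0.12, edgeR FDR 0.00796). Without KO 2, which leaves 1 KO sample, the change was 0.50 and the call was lost. Dusp1, the most abundant member, had 17.0, 17.8 and 18.3 CPM in KO and 15.3, 14.6 and 14.5 CPM in WT. These also did not overlap, but Dusp1 did not pass, with a difference of 0.25 (95% interval 0.02 to 0.49, FDR 0.137). With 6 separate libraries it passed as higher (FDR 0.031), in a fit in which 12.6% of genes were higher.

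Ier2 had 4.68, 6.19 and 5.71 CPM in KO 1 to 3 and 5.14, 4.36 and 5.40 CPM in WT 1 to 3. KO 1 lay within the range of WT, and the difference was 0.17 (95% interval -0.16 to 0.51, edgeR FDR 0.501). Zfp36 had 8.66, 7.91 and 7.96 CPM in KO and 8.51, 8.07 and 8.20 CPM in WT, where KO libraries lay on both sides of WT. Its difference was -0.03 (95% interval -0.31 to 0.24, FDR 0.898). The intervals of Ier2 and Zfp36 lie above the change measured for Egr2, the smallest of the 4 decreases, though the difference between genes was not itself tested.

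These values depend on how libraries are scaled, because nuclear genes took a larger share of the counts in KO. The KO samples had TMM factors of 1.22 and 1.20, and the WT samples 0.862 and 0.794. Without them, relative to total counts alone, the median of all genes moved from -0.01 to 0.54, and 386 genes were lower and 7348 higher in KO, against 1241 and 1339 with TMM. On that scale Egr1, Egr2, Nr4a1 and Nr4a2 still passed as lower, at -1.38, -0.38, -0.56 and -0.94, while Ier2, Dusp1, Btg2 and Zfp36 all passed as higher, at 0.72, 0.80, 1.06 and 0.52. Relative to the shift of the median gene, Zfp36 was again level. Scaled to nuclear counts alone, the members that passed were the same as with TMM. Lower mitochondrial and higher nuclear transcripts cannot be told apart.

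**Figure D2:**
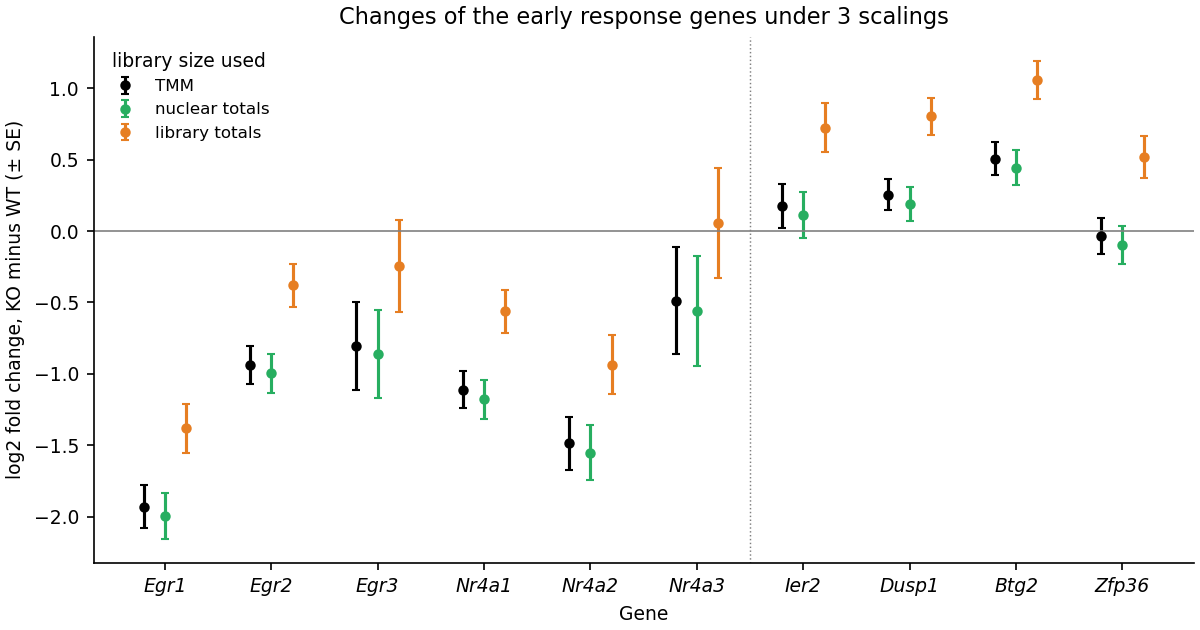
Log2 fold change, KO minus WT, of each gene from edgeR under 3 scalings (TMM in black, nuclear totals in green, library totals in orange), with bars of 1 SE. Library totals move every gene up, yet Egr1, Egr2, Nr4a1 and Nr4a2 stay below 0 and below Ier2, Dusp1, Btg2 and Zfp36.

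Ratios between members within a library need no scaling. The 6 EGR and NR4A genes took 29.6%, 26.9% and 26.5% of the counts of the 10 members in the KO libraries, against 51.7%, 49.9% and 52.8% in the WT libraries. The mix of early response transcripts thus differed in the same way in each library. Per 100 Dusp1 counts, Egr1 had 15.8, 16.9 and 13.4 counts in KO and 72.8, 65.7 and 72.3 in WT. By the same measure Ier2 had 27.5, 34.7 and 31.3 in KO and 33.7, 29.9 and 37.4 in WT, which overlap. Zfp36, level in CPM, had 50.8, 44.4 and 43.6 in KO and 55.8, 55.2 and 56.7 in WT, lower in each KO library. Dusp1 itself had more CPM in every KO library than in any WT library, which lowers ratios to it in KO. Btg2 had 74.7, 73.8 and 73.4 in KO and 59.4, 71.3 and 58.6 in WT. The ratios were chosen after the values were seen and are given without a test.

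**Figure D3:**
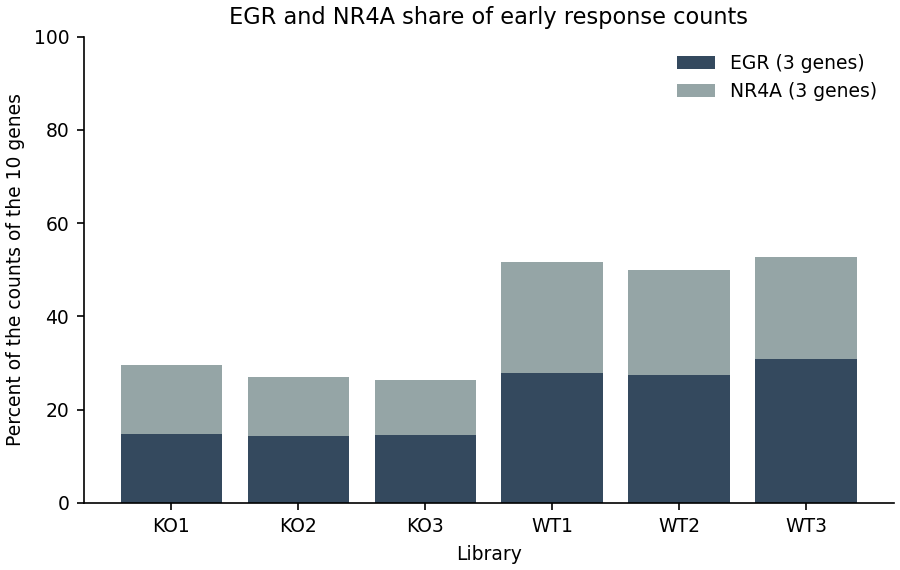
Share of the summed counts of the 10 genes taken by the EGR (dark) and NR4A (light) genes in each library, on an axis from 0 to 100%. The stacked bars reach 26.5% to 29.6% in KO and 49.9% to 52.8% in WT, and both families contribute.

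The order of the members by level per kilobase of their longest transcript differed between the groups. In WT, Dusp1 was first at 6.47 ± 0.221 CPM per kilobase and Nr4a1 was next at 5.01 ± 0.407. Egr2 (3.46 ± 0.264), Btg2 (3.38 ± 0.0878) and Ier2 (3.32 ± 0.106) followed and did not differ beyond their SD. Zfp36 had 3.00 ± 0.0944, Egr1 2.37 ± 0.166 and Nr4a2 1.17 ± 0.0066, and Egr3 and Nr4a3 were last at 0.337 ± 0.0718 and 0.171 ± 0.0629.

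In KO the 4 members outside the EGR and NR4A families came first. Dusp1 had 7.71 ± 0.0557 CPM per kilobase, Btg2 4.81 ± 0.0261, Ier2 3.76 ± 0.460 and Zfp36 2.92 ± 0.1003. Nr4a1 (2.31 ± 0.0608) and Egr2 (1.81 ± 0.0874) were now below all 4. Egr1 had 0.626 ± 0.069, Nr4a2 0.415 ± 0.0018, Egr3 0.192 ± 0.0409 and Nr4a3 0.116 ± 0.0289. Lengths come from another annotation than the counts, so the order between near neighbours is approximate.

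Among related genes from fixed lists, 16 of 85 tested non-members were lower and 17 higher in KO, with a median log2 fold change of -0.01. Thus 38.8% of them passed in either direction, against 17.6% of all tested genes. The lists were chosen with earlier results of these data known. The lower ones included 3 inhibitors of MAP kinase signalling, although the member Dusp1 was not lower. Dusp10, a phosphatase for p38 and JNK, had 0.617, 0.829 and 1.26 CPM in KO 1 to 3, from 24, 35 and 50 counts. In WT 1 to 3 it had 2.28, 2.44 and 2.14 CPM. Its log2 fold change was -1.35 (edgeR FDR 0.00143), and between -1.65 and -1.13 when each library was left out. Spred2 and Spred1, which inhibit the activation of ERK, had changes of -0.61 and -0.53 (FDR 0.00706 and 0.00878). Both calls were lost with library totals (-0.06 and 0.01, FDR 0.75 and 0.941). They were also lost without KO 2, where 1 KO sample was left and the changes were -0.57 and -0.59. In that list of 13 tested phosphatase, Sprouty and Spred genes, Dusp1 included, these 3 were lower and none was higher. Over all tested genes, 8.48% were lower and 9.15% higher.

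The close relatives of Btg2, Zfp36 and Ier2 moved little or in both directions. Of 5 tested BTG and TOB genes only Btg2 passed, while 17.6% of all tested genes passed in either direction. Tob2, Btg1 and Btg3 had differences of 0.21, 0.11 and 0.05 (edgeR FDR 0.325, 0.582 and 0.864). Zfp36l1, a relative of Zfp36 that also promotes decay of AU-rich mRNA, was higher at 0.38 (FDR 0.0278). It did not pass without KO 3 (FDR 0.0918), by DESeq2's Wald test (FDR 0.0759) or with nuclear totals (FDR 0.0729). Without KO 2, which leaves 1 KO sample, it was at 0.36 and its call was lost. Zfp36l2 was at -0.33 and did not pass (FDR 0.0999). Ier3, a stress and survival gene, was higher at 0.86 (FDR 0.0208) and Ier5l lower at -0.90 (FDR 0.0294). The Ier3 call was lost without KO 2 or WT 1, each of which leaves 1 sample in its group, at 0.858 and 0.565. That of Ier5l was lost in the same 2 fits, at -0.866 and -0.829, and without KO 1 or WT 2 (FDR 0.0736 and 0.0833). The Ier5l call was also lost by DESeq2's Wald test (FDR 0.153) or with library totals (-0.35, FDR 0.302). Ier5 was level at 0.01 (FDR 0.978).

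The AP-1 family showed a similar mixture, with 6 genes tested. Fos and Fosb were lower (-1.65 and -3.14, edgeR FDR 0.0015 and 4.8e-06) and Fosl2 was higher (0.62, FDR 0.00371). The Fosl2 call was lost without KO 2, which leaves 1 KO sample, at a change of 0.59. Among 38 other tested early response genes 7 were lower and 12 higher, with a median of 0.28. Of all tested genes, 8.48% were lower and 9.15% higher. Maff, a small MAF transcription factor, had 8.79, 8.63 and 8.80 CPM in KO 1 to 3 and 3.20, 3.62 and 2.45 CPM in WT 1 to 3. All KO libraries were above WT, a change of 1.49 (FDR 1.19e-05). Sik1, a kinase induced by cAMP that restrains CREB coactivators, rose by 1.26 (FDR 0.000123) and Gadd45g, a stress-induced gene, by 0.83 (FDR 0.000432). Cebpd and Socs3, named after their values were seen, had changes of 1.14 and -1.09 (FDR 0.00218 and 0.0107). Socs3 did not pass by DESeq2's Wald test (FDR 0.051) or with library totals (-0.54, FDR 0.104).

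**Figure D4:**
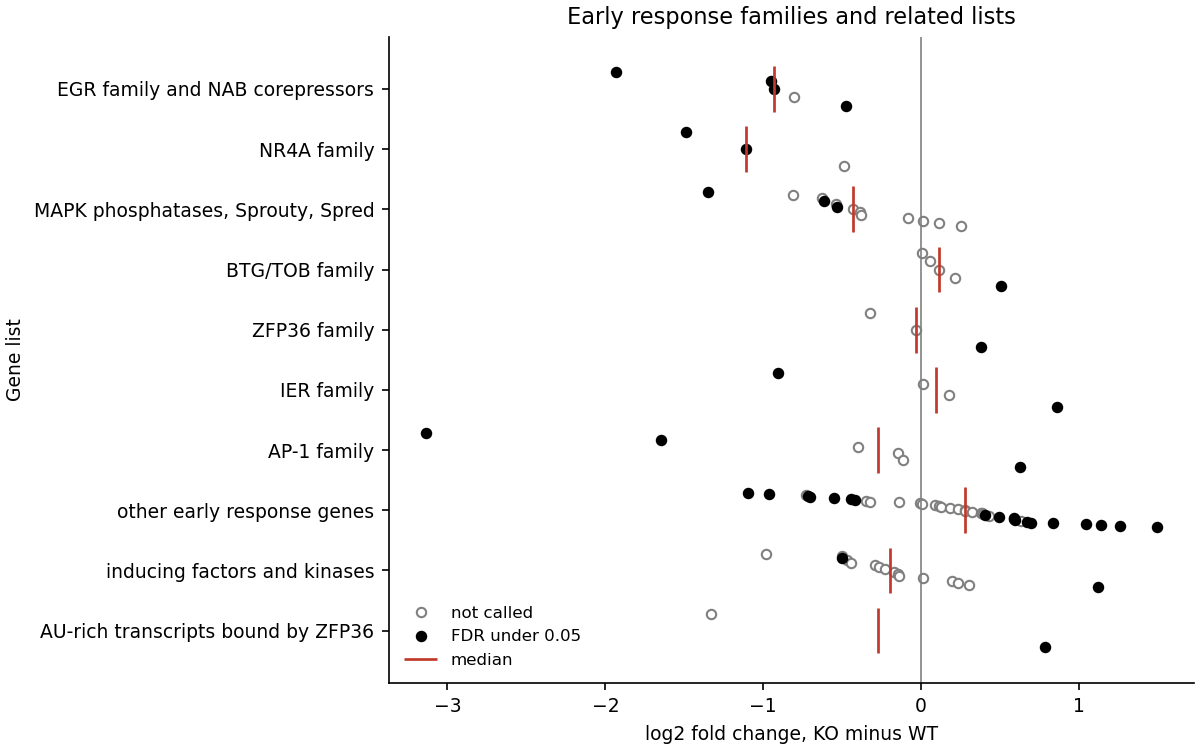
Log2 fold change, KO minus WT, of every tested gene in 10 lists (rows), with filled points for FDR under 0.05 by edgeR and a red line at each list's median. The EGR, NR4A and MAP kinase inhibitor lists lie mostly left of 0, and the other early response genes spread to both sides.

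The factors that switch these genes on were tested beside all genes, of which 8.48% were lower and 9.15% higher in KO. Of 16 tested genes of SRF, its ternary complex and MRTF partners, CREB and its coactivators, and the ERK and RSK kinases, 1 was lower and 1 higher. Mrtfb, an actin-regulated SRF coactivator, was at 15.1 ± 0.324 CPM in KO against 6.95 ± 0.104 in WT (log2 fold change 1.12, edgeR FDR 2.11e-05). Mapk3, the gene of ERK1, was lower (-0.50, FDR 0.00983), though not with library totals (0.04, FDR 0.811). Without KO 2, which leaves 1 KO sample, the Mapk3 change was -0.52 and the call was lost. Crtc3, a CREB coactivator, was at -0.44 and did not pass (FDR 0.0793). It passed with 6 separate libraries (FDR 0.0229), a fit in which 12.4% of genes were lower. With the replicate number added as a block to that fit, Crtc3 also passed (FDR 0.0395).

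Of 12 AU-rich transcripts that ZFP36 is known to bind, 7 were among the genes of the count table. Of these 7, only Vegfa and Cxcl1 had enough counts to test. Vegfa, the vascular growth factor, was higher in KO at 13.4 ± 0.534 CPM against 7.76 ± 0.198 (log2 fold change 0.78, edgeR FDR 0.000444), and Cxcl1 did not pass (-1.33, FDR 0.142). The cytokine genes Tnf, Il6 and Il1b had at most 4 counts in a library. Counts of these 3 genes were too low to test.

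Macrophage, neutrophil and mast cell markers were lower in the libraries in which Egr1, Egr2, Nr4a1 and Nr4a2 were lower. Over all tested genes, 8.48% were lower in KO and 9.15% higher. Of 12 macrophage markers 7 were lower and none higher, and their sum was 69.4 to 71.5 CPM in KO and 104.6 to 131 CPM in WT. Of 7 tested neutrophil and mast cell markers 6 were lower, with a sum of 6.30 to 7.002 CPM in KO and 17.3 to 20.4 CPM in WT. Endothelial markers had 4 of 10 higher and 2 lower, with 399.9 to 411 CPM in KO and 328 to 332 CPM in WT, and no marker of these lists that the table holds was at 0 in every library. The 7 T and B cell markers in the table had too few counts to test.

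Markers of several other tissues also differed between the same libraries, to unequal extents, while of 8 tested erythroid markers none passed. The counts of each list stand beside 8.48% lower and 9.15% higher over all tested genes. All 10 tested salivary gland markers were higher in KO, with sums of 527 to 555 CPM against 41.6 to 45.5 in WT, as were all 9 tested neuron markers, with 38.4 to 45.8 against 6.74 to 9.03. Of 10 olfactory and nasal markers 9 were lower, with 4.67 to 5.76 CPM in KO and 35.4 to 38.6 in WT, and of 8 dental markers 6 were lower and 1 higher, with 537 to 559 and 1526 to 1629. Of 9 tested adipocyte markers 6 were lower and 1 higher, although their sum was 897 to 982 CPM in KO and 507 to 697 in WT. Fast muscle markers had 5 of 12 higher and none lower, with 7530 to 8806 CPM in KO and 4960 to 6890 in WT. The part of these cell types and tissues in the levels of the members was not tested.

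Of 10990 genes with a mean of at least 1 CPM, those in the lists were set aside. Among the rest, the genes whose pattern over the 6 libraries lay nearest to that of Egr1 were Smco3, Dhh and Mfsd2a. Their distances were 0.234, 0.283 and 0.324 log2 units, and Dhh, the hedgehog ligand that Schwann cells secrete, had 1.98, 2.44 and 2.05 CPM in KO 1 to 3 and 7.32, 6.98 and 8.27 CPM in WT 1 to 3. Nearest to Nr4a1 were Pck1, Sec14l5 and Plekhb1, at 0.115, 0.149 and 0.161. Pck1, the gluconeogenic enzyme PEPCK, had 2.57, 2.42 and 2.05 CPM in KO and 5.52, 4.93 and 4.78 CPM in WT. These likenesses are over 6 libraries and describe mostly the difference between the groups.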

How the data were processed

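The authors deposited raw read counts per gene symbol, 1 column per library. HISAT2 2.1.0, StringTie 2.1.5 and build mm39 are named in the submitters' processing notes, and the sources used here do not give the annotation, strand setting or rule for shared reads. There were 4.69 to 5.06 genes with 2 counts for each gene with 1, so a read pair appears to add 2 counts. Groups and replicate numbers come from the sample titles. Pairs of libraries with a median variance ratio under 1.1 were summed. Tests used edgeR 4.0.16 in R 4.3.3, with filterByExpr at a minimum count of 10, TMM, a robust quasi-likelihood fit with group as the term, and Benjamini-Hochberg adjustment over all tested genes. It was tested on simulated data. DESeq2 1.42.0, limma 3.58.1 and other settings were tried. CPM per library uses TMM factors over the 6 libraries, and means ± SD are over the 2 samples. The SE is the size of the change over the root of the F statistic. Pattern likeness is the Euclidean distance of centred log2 CPM. The members and lists were chosen with earlier results of these data known. Named genes are the members, up to 3 other genes of smallest p per list with the called genes of short lists, Igf2bp2, 4 tissue markers and the 3 genes nearest to Egr1 and to Nr4a1. Cebpd, Socs3 and the low cytokine genes Tnf, Il6 and Il1b were named outside this rule.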

Additional observations from a re-analysis of the deposited data

How the results depend on the processing

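Egr1, Egr2, Nr4a1 and Nr4a2 were lower in KO and passed in each alternative run: 6 separate libraries, the replicate block, DESeq2 size factors, no filter, the DESeq2 Wald test, limma-voom, mitochondrial genes left out, library or nuclear totals without factors (both added after seeing the data), and each library left out. The counts of genes lower and higher were 1241 and 1339, with 738 lower in the DESeq2 Wald test, and 386 lower and 7348 higher with library totals. Leaving out each library gave 533 to 1187 lower and 616 to 1348 higher, the fewest without KO 2. Without KO 2 or WT 1 that group has 1 sample, assumed to vary like the other group, and without WT 1 the counts were 1048 and 1348. The number of members higher was 1, 2 with 6 separate libraries, 4 with library totals and 0 to 1 over the fits that left out a library; Btg2 ranged from 0.43 to 0.58 in those. With 6 separate libraries Egr3 (-0.80) and Dusp1 (0.26) passed. With library totals Ier2 (0.72) and Dusp1 (0.80) passed and Zfp36 turned positive (0.52), as did Nab1 (0.075), Spred1 (0.014) and Mapk3 (0.042), which did not pass there, and Nab2 (-0.40), Spred2 (-0.06), Ier5l (-0.35) and Socs3 (-0.54) lost their calls. Listed non-members were 16 lower and 17 higher, 8 lower in the DESeq2 Wald test, 3 and 44 with library totals, and 6 to 18 and 7 to 16 when each library was left out. The cause of these differences was not tested.

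With the replicate number as a block over 6 separate libraries, 1448 genes were lower and 1493 higher, against 1707 and 1745 without it, and Egr1 was at -1.93 (FDR 2.85e-07). Correlations of deviations from the group means were -0.20, -0.28 and 0.21 for the same-numbered pairs 1 to 3. KO 2 correlated best with WT 1 (0.41). With 3 libraries per group, of which 2 form a close pair, these values cannot show whether the numbers pair the libraries. Depth limits Egr3 and Nr4a3, with 95 and 84 counts over KO, and without molecular identifiers counts are not independent molecules.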
